A study of Oryzias latipes with 4 samples.

Results

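The 3 genes described here are gnrh3, the gene of a releasing hormone made by forebrain neurons, and lhb and fshb, which encode the beta subunits of luteinizing hormone and follicle-stimulating hormone in the pituitary. They were taken as the rows of the deposited expression table whose best sequence hit carries one of these gene names. This gave 4 rows for 3 genes, out of 20915 genes with a name in the table. The samples were female medaka (Oryzias latipes), a small teleost fish bought from a local dealer and first held under short days. Short-day (SD) fish stayed in that regime, long-day (LD) fish were transferred to long days, and tissue was taken 16 h after the transfer. The pituitary was taken along with the hypothalamus and the ventral telencephalon, from 6 fish in each regime, and RNA was sequenced in 2 libraries per regime, called SD 1, SD 2, LD 1 and LD 2. The labels do not say how fish were divided between libraries. Every p-value therefore rests on the spread between libraries, which may be partly technical.

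Gonadotropin-releasing hormones are decapeptides cut from precursors made in neurons. In medaka, as in many teleosts, the GnRH3 neurons lie in the terminal nerve and the ventral forebrain and act mainly as modulators of other neurons, while a separate set of preoptic neurons that make GnRH1 reaches the pituitary. In the pituitary each gonadotropin is a dimer of the alpha subunit encoded by cga, shared with thyrotropin, and its own beta subunit, so that lhb and fshb set which hormone is made. In teleosts, luteinizing hormone and follicle-stimulating hormone come largely from separate cells. Follicle-stimulating hormone is known for driving the growth of ovarian follicles and luteinizing hormone for final maturation and ovulation. Medaka breed under long days, and the comparison asks how gnrh3 and the gonadotropin genes of this axis stood 16 h after the change of day length. No row of the table carried the name gnrh1, which was not analysed here.

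The deposited features behind the genes differ in how much of each gene they hold. The gnrh3 feature spans chromosome 15 from 19393055 to 19394534. It is 824 bases long and aligned over all 273 coding bases of the 3 coding segments of progonadoliberin-3. The expressed lhb feature spans chromosome 15 from 14338145 to 14339897, is 445 bases long and aligned over 438 of the 441 coding bases, so its value rests on the lutropin beta coding sequence almost alone. A second feature with the name lhb, 309 bases long over nearly the same interval, was listed at 0 in all 4 libraries and adds nothing to the sum. The fshb feature is of another kind: it spans chromosome 3 from 9891640 to 9902865 and is 798 bases long. Only 160 of its bases aligned to follitropin beta, which is 45.2% of the 354 coding bases. The coding segment at 9890488 to 9890682 lies outside its span. The 1 other feature that spans that segment did not exceed 0.0552 FPKM in any library. The fshb values below are therefore those of a feature that holds the first coding segment of fshb and 638 bases that do not align to its coding sequence. Whether its FPKM reflects fshb mRNA could not be settled from the table, and this limit holds for each level, rank and ratio given for fshb. Coordinates are those of the deposited table, for which no genome build is named, and exons within a feature are not listed there.

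**Figure D1:**
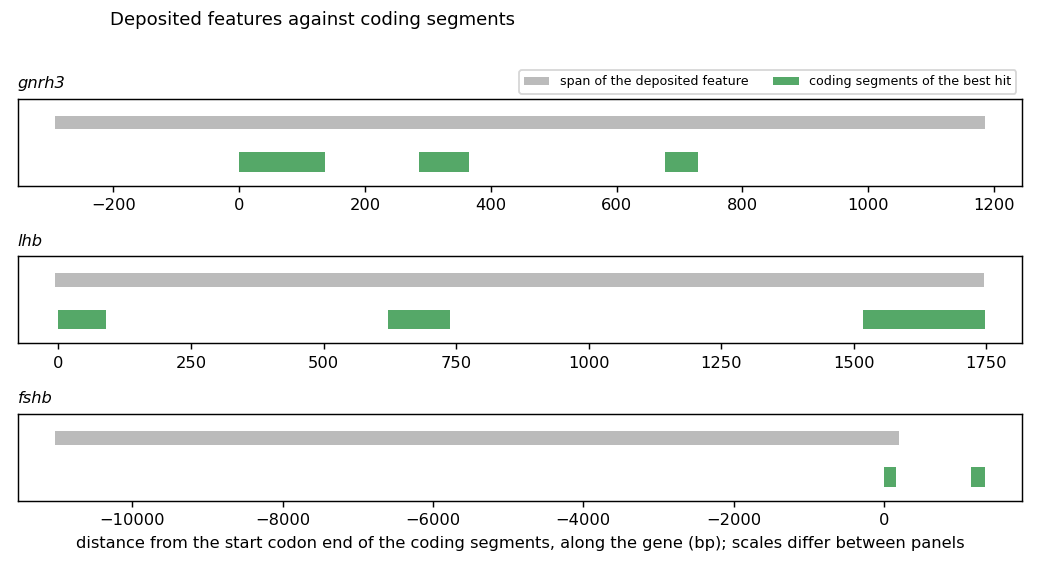
Span of the expressed deposited feature (grey) and coding segments of its best hit (green) for gnrh3, lhb and fshb, by distance in bp from the coding start along the gene, with a different scale in each panel. The gnrh3 and lhb features cover their coding segments, up to 3 bases for lhb. The fshb feature reaches only 1 of 2 coding segments and extends past the coding start, away from the other segment.

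Expression was given as FPKM, a fragment number corrected for feature length and library size, so levels of different genes can be set side by side per length. The FPKM columns summed to between 458696.5 and 463065.7. Relative depth, estimated from the commonest low value of FPKM times length, was lowest in SD 1, 1.09 to 1.10 times as high in the LD libraries and 1.47 times as high in SD 2. On that scale the expressed features stood for roughly 530 to 1159 fragments for gnrh3, 581 to 1762 for lhb and 144 to 328 for fshb. Only 10.1% to 11.5% of low values were whole multiples of that product within 0.02, so the depths, their order included, and the fragment numbers are uncertain, and no counting interval is given. The 10 pituitary markers all averaged 1 FPKM or more, as did 11 of 11 hypothalamic and 6 of 8 telencephalic markers, so all of the labelled regions were represented. Markers of neurons summed to 1369 to 1401 FPKM. Of other tissues, blood markers summed to 4571 to 7278 FPKM, liver markers to 949 to 1194, muscle markers to at most 16.6, retinal markers to 1.55 to 4.27 and ovarian markers to 16.1 to 17.4. An average of 1 FPKM or more was reached by 3 of 5 blood, 1 of 6 liver, 2 of 6 muscle, 1 of 7 retinal and 2 of 7 ovarian markers. The liver sum came almost wholly from the apolipoprotein A-I gene LOC101169721, at 948.1 to 1194 FPKM.

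Between the groups, gnrh3 stood in LD at 66.8% of its SD level, lhb also stood lower but with LD libraries far apart, and fshb showed no common direction. Over the 17044 genes and unnamed features that averaged 1 FPKM or more, limma on log2(FPKM + 1) called 1 lower in LD (0.00587%) and 0 higher (0%) at a Benjamini-Hochberg adjusted p below 0.05, and 0 of the 3 genes was among them. The variance that limma uses for a gene is moderated toward that of genes and features of like level. Its standard errors, intervals and p-values therefore do not rest on the gene's own libraries alone. At an unadjusted p below 0.05 there were 646 lower (3.79%) and 434 higher (2.55%). The log2 change was below 0 for 53.7% of them and above 0 for 46.3%, and it was below 0 for 3 of the 3 genes. The 1 call was somatotropin, a pituitary gene at 913.5 and 866.2 FPKM in the SD libraries and 262.9 and 273.5 in the LD libraries, with a log2 change of -1.73 (limma adjusted p = 0.0229). The call was lost without SD 1 and without LD 2. In a mixed block of tissue, fewer cells of a type and less RNA per cell cannot be told apart, and this holds for every value that follows.

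The releasing hormone gene gnrh3 stood at 38.9 FPKM in SD 1 and 43.4 in SD 2, against 26.6 in LD 1 and 28.4 in LD 2. Both LD libraries lay below both SD libraries, with a gap between the groups larger than the distance within either. Libraries of the groups were apart in this direction for 20.9% of all genes and features. The mean was 41.2 ± 3.20 FPKM in SD and 27.5 ± 1.31 in LD (standard deviation, n = 2 libraries each), which puts LD at 66.8% of SD. On the log2(FPKM + 1) scale the change was -0.56 with a standard error of 0.09 and a 95% interval from -0.79 to -0.34. By p-value gnrh3 ranked 35 of 17044, and it did not pass over all genes (limma adjusted p = 0.604). As the groups do not overlap, each of the 4 pairs of an LD and an SD library had the same direction. They ran from -0.69 for LD 1 against SD 2 to -0.44 for LD 2 against SD 1. SD 2 exceeded SD 1 by 0.16 in log2, a larger gap than in 67.5% of the 4845 genes and features within a factor of 2 of its mean, whose median was 0.1. LD 2 exceeded LD 1 by 0.09, equal to the LD median of 0.09.

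The nearest named gene above the filter, 1639 bases away, is ptpe, which encodes a protein tyrosine phosphatase. It stood at 24.9 and 25.2 FPKM under short days against 24.3 and 23.7 under long days, a much smaller difference than that of gnrh3. The 8 markers of the telencephalon, the region in which GnRH3 neurons lie, summed to 149.8 FPKM in SD 1 and 126.1 in SD 2, against 133.1 in LD 1 and 158.2 in LD 2. These sums overlapped between the groups, but their members went different ways. Both LD libraries were lower for dlx2 (26.3 and 24.0 FPKM in SD, 23.0 and 23.25 in LD). They were also lower for dlx5 (43.0 and 38.5 against 36.6 and 36.8) and the EMX1 gene LOC101168414. Both were higher for the eomesodermin gene LOC101171177 (26.4 and 20.55 against 29.45 and 36.7) and the EMX1 gene LOC101172307, and the others overlapped. With gnrh3 divided by the summed telencephalic markers in each library, the log2 change was -0.66, as large as without the division (exact permutation test, two-sided p = 0.333, the smallest that 2 libraries against 2 allow). The part of telencephalic content in the gnrh3 difference was not tested. The summed hypothalamic markers also overlapped, at 1251 and 1724 FPKM under short days against 1630 and 1536 under long days.

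**Figure D2:**
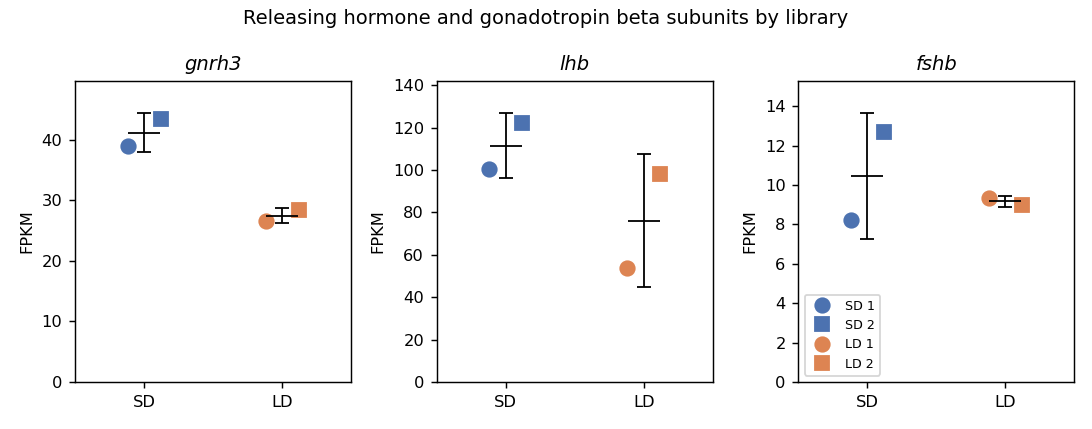
FPKM of gnrh3, lhb and fshb in each library (circle, replicate 1, and square, replicate 2; SD blue, LD orange), with the group mean (horizontal dash) and standard deviation (bar) of 2 libraries each and axes from 0. The groups are well apart for gnrh3 (38.9 and 43.4 against 26.6 and 28.4), close to touching for lhb and overlapping for fshb.

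The luteinizing hormone subunit gene lhb was the most abundant of the 3 genes, at 100.5 FPKM in SD 1 and 122.2 in SD 2, against 53.9 in LD 1 and 98.3 in LD 2. The LD libraries were again both below the SD libraries, but LD 2 lay close to SD 1 and LD 1 far below the other 3. Mean lhb was 111 ± 15.4 FPKM for SD and 76.1 ± 31.4 for LD (n = 2 each), with LD at 68.3% of SD, a mean difference close in proportion to that of gnrh3. The log2 change of -0.60 had a standard error of 0.29 and a 95% interval from -1.34 to 0.14 (limma adjusted p = 0.790). LD 2 exceeded LD 1 by 0.85 in log2, a larger gap than 99.2% of 1651 genes and features of like level showed between these libraries. Without LD 1 the change was -0.17, and without LD 2 it was -1.03.

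A value in LD 1 far below that in LD 2 was also seen in prolactin-1, but not in most other pituitary hormone genes. Prolactin-1 (LOC101172582), which encodes the prolactin known in fish for its part in salt and water balance, stood at 3900 and 3743 FPKM in SD and at 1825 in LD 1 and 3536 in LD 2. Its 4-library profile was closer to that of lhb than any other gene of the pituitary list, with a root mean square difference of 0.125 in centred log2(FPKM + 1). Somatolactin came next, at 0.213, with 103.5 and 140.8 FPKM in SD, 60.7 in LD 1 and 77.8 in LD 2. Its LD libraries differed by 0.35 in log2 and its SD libraries by 0.44. Somatotropin, the growth hormone, did not share the gap between LD libraries, at 263 FPKM in LD 1 and 274 in LD 2, and neither did pomc, the precursor of corticotropin and melanotropin, at 1384 and 1165. In pomc, cga (393 and 339 FPKM) and prl (3.36 and 0.843 FPKM), LD 1 was higher than LD 2. The LD 1 library also had the highest summed glial markers, 1255 FPKM against 629 in LD 2 and 752 to 811 in SD, and their part in the lhb values was not tested. The 10 pituitary markers together summed to 6952 FPKM in SD 1 and 7313 in SD 2, against 4022 in LD 1 and 5496 in LD 2. This total was lower in both LD libraries, and LD 1 was the lowest. Divided by that sum in each library, lhb had a log2 change of -0.01 (exact permutation test, two-sided p = 1.0). Prolactin-1, whose profile is close to that of lhb, is the largest term of the sum in every library, so the division does not separate lhb from pituitary content, whose part in the lhb difference was not tested.

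The feature named fshb had the lowest level of the 3, at 8.19 FPKM in SD 1 and 12.7 in SD 2, against 9.35 in LD 1 and 8.97 in LD 2. Both LD libraries lay between the SD libraries, so the groups overlapped. Mean fshb was 10.4 ± 3.19 FPKM for SD and 9.16 ± 0.267 for LD (n = 2 each). The log2 change was -0.14 with a standard error of 0.20 and a 95% interval from -0.66 to 0.37 (limma adjusted p = 0.912), an interval that includes lower and higher LD levels. Nearly all of its spread came from SD: SD 2 exceeded SD 1 by 0.58 in log2, more than 96.5% of 6973 genes and features of like level, while the LD libraries differed by 0.05. Without SD 2 the direction turned, to 0.14. The genes next to it, arl14ep (7.64 and 8.87 FPKM for SD, 9.04 and 7.59 for LD) and the potassium channel gene kcna4 (4.77, 4.25, 3.63 and 4.99), also overlapped. Divided by the summed pituitary markers, fshb had a log2 change of 0.44 (exact permutation test, two-sided p = 0.667). Prolactin-1 is the largest term of that sum, so the value follows that gene as well as pituitary content, whose part was not tested.

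**Figure D3:**
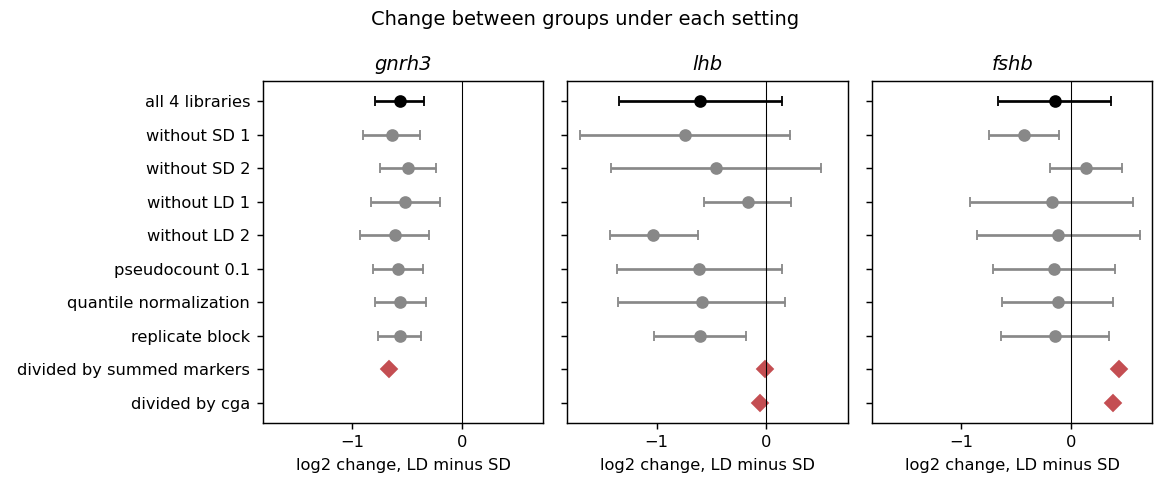
Log2 change from SD to LD of gnrh3, lhb and fshb (x axis) for the fit to all 4 libraries (black) and 7 other settings (grey), with 95% intervals from limma, and for values divided by summed markers or by cga (red diamonds, no interval; the markers are telencephalic for gnrh3 and pituitary for lhb and fshb). All gnrh3 points lie below 0, from -0.66 to -0.49, lhb points run from -1.03 to -0.01 and fshb points lie on both sides of 0. A fit without 1 library leaves 1 library in a group. Its interval holds no spread within that group and can be narrower than that of the fit to all 4.

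High values in SD 2 were seen in other pituitary genes. The part of depth, whose estimate was highest in SD 2, was not tested. The alpha subunit gene cga stood at 347 FPKM in SD 1 and 816 in SD 2, against 393 in LD 1 and 339 in LD 2, and the thyrotropin beta-like gene LOC101171658 at 52.7 and 281 against 64.1 and 72.9. SD 2 was therefore far above the other 3 libraries for both, and the groups overlapped. The LIM homeobox genes lhx3 and lhx4, which act in the making of pituitary cells, stood at 6.93 and 12.3 FPKM and at 1.37 and 2.68 in SD 1 and SD 2, with 5.92 to 6.63 and 1.38 to 1.46 in LD. In the 4-library profile, fshb was closer to lhx4 (root mean square difference of 0.076) than to lhx3 (0.199), cga (0.311) or lhb (0.407). At the low level of lhx4 the pseudocount of 1 shrinks its differences, and the part of this in the closeness was not tested. Of the 10 pituitary markers, SD 2 exceeded SD 1 for 6 and LD 2 exceeded LD 1 for 6. In the log2 means 9 were lower in LD and 1, prl, was higher, with a median of -0.64. The whole set of 17044 had a median of -0.01 and 53.7% below 0. Among the other hormone genes of the list, somatolactin was at 103.5 and 140.8 FPKM in SD against 60.7 and 77.8 under long days, and the thyrotropin beta gene LOC105354380 at 16.4 and 34.5 against a mean of 1.23 ± 0.105 (n = 2). The pituitary-specific factor gene pou1f1, a factor for the cells of growth hormone, prolactin and thyrotropin, was at 29.1 and 46.2 FPKM in short days against 21.6 and 23.9.

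The order of the 3 genes was the same in every library, with lhb above gnrh3 and gnrh3 above fshb. The ratio of lhb to gnrh3 was 2.58 in SD 1 and 2.82 in SD 2, against 2.03 in LD 1 and 3.46 in LD 2. Both SD values lay between the LD values, so the groups overlapped. The difference between hormone and releasing hormone in log2(FPKM + 1) was 1.41 on average in SD and 1.38 in LD, a change of -0.03 (exact permutation test, two-sided p = 1.0), and it was 0.35 without LD 1. The ratio of fshb to gnrh3 was lower, at 0.211 in SD 1 and 0.292 in SD 2, against 0.352 in LD 1 and 0.316 in LD 2. Both LD libraries were above both SD libraries. The mean log2 difference was -1.91 in SD and -1.49 in LD, a change of 0.42 (exact permutation test, two-sided p = 0.333, the smallest possible here). The change ran from 0.21 to 0.63 when any 1 library was left out. It could not fall below 0 there, because both LD values exceed both SD values. Here gnrh3 was lower in LD while fshb overlapped.

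The ratio of lhb to fshb was 12.3 in SD 1 and 9.63 in SD 2, against 5.77 in LD 1 and 11.0 in LD 2. It was lowest in LD 1, and the groups overlapped. Its log2 change of -0.45 (exact permutation test, two-sided p = 0.667) was 0.0 without LD 1. The alpha subunit gene was in excess of both beta subunit genes per length. The ratio of cga to lhb was 3.46 in SD 1 and 6.68 in SD 2, against 7.29 in LD 1 and 3.45 in LD 2, so 1 library of each group was high and 1 was low. The ratio of cga to fshb was 42.4 and 64.3 in SD and 42.1 and 37.8 in LD, where LD 1 was barely below SD 1. Divided by cga in each library, fshb had a log2 change of 0.39 and lhb of -0.06 (exact permutation tests, two-sided p = 0.333 and 1.0).

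**Figure D4:**
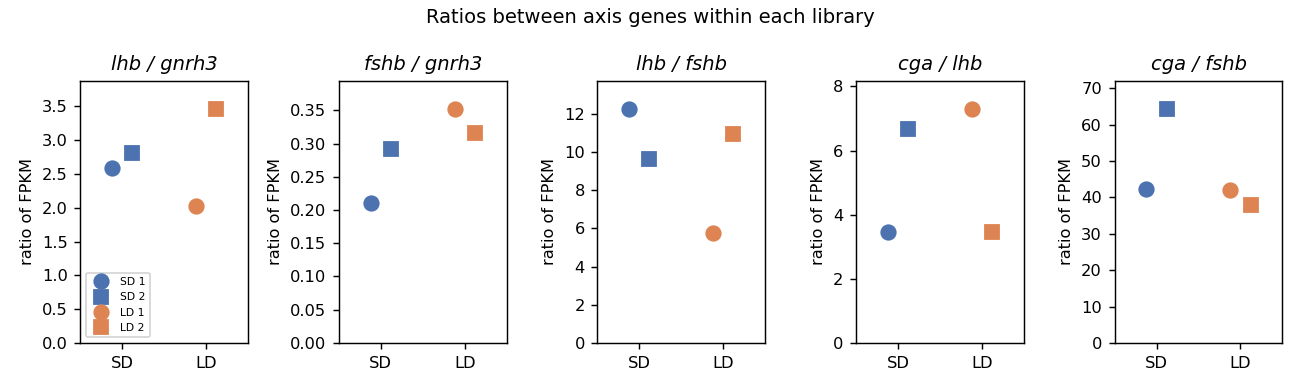
Ratios of FPKM within each library for lhb to gnrh3, fshb to gnrh3, lhb to fshb, cga to lhb and cga to fshb, with symbols for SD 1, SD 2, LD 1 and LD 2 and axes from 0. The ratio of fshb to gnrh3 is higher in both LD libraries (0.352 and 0.316) than in SD (0.211 and 0.292), and the ratios with lhb set LD 1 apart from LD 2.

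Other genes of the axis had log2 changes from -0.61 to 0.79. A list of 47 genes was drawn up by role, and 35 of them passed the filter on low values. None passed over all genes (limma adjusted p between 0.700 and 0.992), and 4 had an unadjusted p below 0.05, against 6.34% of the whole set in either direction. In the log2 means 22 were lower in LD and 13 higher, with a median of -0.08. Both LD libraries lay below both SD libraries for 12 of the 35, where the share of all genes and features is 20.9%, and above for 5, where it is 16.3%. Without SD 2 the split was 16 lower and 19 higher, with a median of 0.02.

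Among releasing hormones and upstream peptides, gnrh2, whose hormone is made in the midbrain outside the dissected block, was listed at 0 in SD 1 and LD 2 and at 1.45 and 0.462 FPKM in SD 2 and LD 1, under the filter. The most abundant was npy, a peptide of feeding circuits that also acts on GnRH neurons and gonadotrophs, at 159 and 164 FPKM under short days against 121 and 155 under long days. Next came the gonadotropin-inhibitory hormone gene LOC101159115, at 24.5 and 30.6 against 34.3 and 26.7, with overlapping groups. The largest log2 change of the role was 0.25, for adcyap1, which encodes the peptide PACAP, at 20.1 and 23.6 against 26.3 and 25.8 FPKM. Kisspeptin, a stimulator of GnRH neurons in mammals, was represented by kiss-2 at 5.10 and 4.48 FPKM under short days against 4.42 and 6.39 under long days, and tachykinin 3 (tac3) stood at 9.71 and 10.8 against 8.47 and 8.59. The other kisspeptin gene, kiss-1, was at 0.342 FPKM or less in each library, under the filter. Kiss-1, kiss-2 and tac3 were picked with their values known.

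Among receptors, 6 of 8 tested had lower means in LD, with a median of -0.05, where 53.7% of all genes and features were lower. The split was 4 lower and 4 higher without SD 1, without SD 2 and with quantile normalization. The GnRH receptor gene gnrh-r2 was the most abundant, at 28.1 and 24.6 FPKM under short days against 27.4 and 21.8 under long days as the sum of 2 features, and drd2, a receptor for dopamine, which inhibits gonadotropin release in many teleosts, stood at 13.1 and 11.8 against 12.4 and 11.4. Both pairs overlapped. The largest log2 change was -0.32, for gnrh-r3, at 5.60 and 4.66 FPKM against 3.36 and 4.48, where both LD libraries were lower. Of the other GnRH receptor genes, gnrh-r1 was at 0.133 FPKM or less in each library. The GnRH-II receptor-like gene LOC101167607 stood at 4.65 and 5.24 FPKM under short days against 4.63 and 4.89 under long days, with overlapping groups. These genes were picked with their values known.

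Of the 12 tested transcription factor genes linked to gonadotrophs, 5 were lower and 7 higher, with a median of 0.08. The most abundant were egr1, the effector by which GnRH switches on lhb in mammals, at 44.5 and 36.7 FPKM under short days against 47.9 and 39.8 under long days, and isl1, at 30.3 and 30.6 against 33.8 and 30.3. Both pairs overlapped. Of the other egr1 genes, LOC101169519 was higher in both LD libraries, at 21.4 and 18.1 FPKM against 26.4 and 22.0. LOC101160576 overlapped, at 3.53 and 3.72 against 6.36 and 3.53. The largest log2 change was 0.79 (95% interval from 0.39 to 1.19), for gata2, at 1.10 and 1.24 FPKM against 2.66 and 2.85 (limma adjusted p = 0.700). A second gata2 gene, LOC101161391, did not share it, at 3.81 and 4.59 FPKM against 3.94 and 3.85. Its log2 change was -0.08 with overlapping groups, and it was picked with its values known. On the lower side pitx1, a homeobox gene of the whole pituitary lineage that acts on gonadotropin promoters in mammals, stood at 9.14 and 10.8 against 6.41 and 5.90. Its profile differed from that of gnrh3 by a root mean square of 0.077, the closest of the pituitary list. The foxl2 gene, expressed in gonadotrophs, stood at 6.55 and 8.54 against 6.05 and 5.96, with both LD libraries lower, and was likewise picked with its values known.

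All 7 steroid feedback genes had lower means in LD, with a median log2 change of -0.29, and for 5 of them both LD libraries lay below both SD libraries. Of all genes and features, 53.7% had a change below 0 and 20.9% had LD libraries below both SD libraries. None of the 7 passed over all genes, and without SD 2 the split was 5 lower and 2 higher. The oestrogen receptor gene esr1 had the largest change, -0.35 (limma adjusted p = 0.784), at 5.78 and 5.29 FPKM under short days against 3.87 and 4.39 under long days. The most abundant, cyp19b, the brain aromatase that turns androgen into oestrogen, stood at 153.8 and 185.8 against 183.5 and 148.1, with overlapping groups. Next in level was the androgen receptor gene ar-alpha, at 6.92 and 8.59 against 7.58 and 6.88, also overlapping. The other androgen receptor gene, LOC100049233, stood at 6.09 and 6.20 against 4.46 and 4.94, and was likewise picked with its values known. Activin stimulates fshb in mammals. Of the activin and follistatin genes, follistatin (fst), the binding protein that blocks activin, was at 3.75 and 3.32 FPKM under short days against 3.77 and 4.15 under long days. The inhbb gene stood at 1.88 and 2.36 against 1.58 and 1.44.

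**Figure D5:**
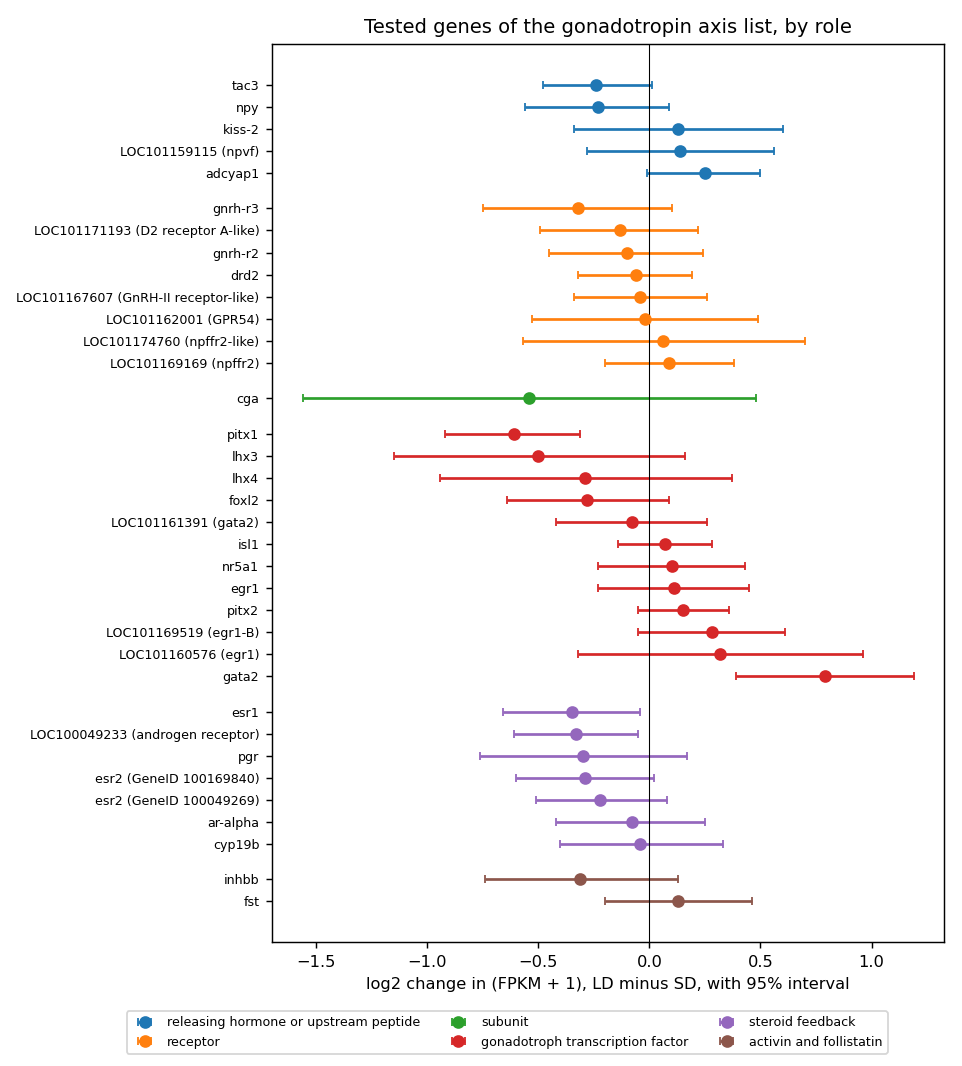
Log2 change in (FPKM + 1) from SD to LD for the 35 tested genes of the axis list, one per line and coloured by role, with 95% intervals from limma. The steroid feedback genes lie at or left of -0.04, the transcription factor genes range from -0.61 to 0.79, and most intervals include 0.

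The genes whose profile over the 4 libraries was most like each member were taken, as a description, from 7004 genes that averaged 5 FPKM or more and have a symbol other than a bare LOC number, which leaves out prolactin-1. For gnrh3 they were fam20a, a pseudokinase gene (root mean square difference of 0.049), the netrin receptor gene dcc (0.050), the phosphodiesterase gene pde7b (0.053), stab1 (0.059) and sclt1 (0.062). The dcc gene stood at 22.2 and 25.5 FPKM under short days against 15.6 and 15.2 under long days. For lhb no gene of these came within 0.1, and the nearest of them included ninl (0.145), zbtb20 (0.148), slc6a9 (0.152) and zfp36l1 (0.157), each with its lowest value in LD 1. For fshb 61 genes lay within 0.1, led by mamdc2 (0.031), hgh1, tfpi2 and anxa1 (0.034 each) and tmem132e (0.041), all highest in SD 2. A profile over 4 libraries says nothing about common control.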

How the data were processed

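The authors deposited 1 table of FPKM with 1 column per library, per the file headers, and a feature length and best sequence hit for each of 93896 features. The submitters' processing notes list StringTie 1.3.3b and HISAT2 2.0.5 without roles or settings, and stranded mRNA libraries were made, per the labels' protocols. FPKM of features sharing a gene identifier were summed (20915 genes, each present in RefSeq's gene list for ASM223467v1, which gave names only), and unnamed features were kept as they were, for 62669 units. Units with a mean of at least 1 FPKM (17044) were compared by limma 3.58.1 (R 4.3.3) after a log2(FPKM + 1) transform, group as the only term, a mean-variance trend, two-sided p and Benjamini-Hochberg adjustment at 0.05. The pseudocount of 1 understates changes of low genes. The fit was run on simulated data with planted changes larger than those of the members. It was not tested for changes of their size. Differences between members were tested by exact permutation over libraries. Tables and plots used Python 3.11.15, pandas 2.3.3 and matplotlib 3.10.9.

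Members and gene lists were chosen with earlier results of these data known. Beside the members, the text names the 2 most abundant tested genes and the 1 with the largest log2 change of each role, the other pituitary hormone genes with pou1f1, and the 5 most similar named genes per member, of which 1 is not reported here. Further genes, such as lhx3, lhx4 and pitx1, were picked with their values known, apart from the neighbours on the chromosome. Alternatives were another pseudocount, other filters, scalings, variance models and row groupings, a replicate block, and each library left out. Division by markers or by cga was added after seeing the data.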

Additional observations from a re-analysis of the deposited data

How the results depend on the processing

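The direction of gnrh3 held in each alternative tried, with log2 changes of -0.66 to -0.49. In the limma fits to all 4 libraries its adjusted p lay between 0.470 and 0.845. Leaving out 1 library or using another pseudocount could not turn the gnrh3 direction, because the groups do not overlap. Other filters, variance models and row groupings and the replicate block could not change its estimate of -0.56. Scaling could hardly do so, with library factors from 0.9947 to 1.0066. For lhb the changes from limma fits ran from -1.03 to -0.17 (adjusted p between 0.582 and 0.949), and it was -0.01 divided by pituitary markers and -0.06 divided by cga (exact permutation p = 1.0 for both). The fshb change turned with division by pituitary markers (0.44) and by cga (0.39), both added after seeing the data, and with any 1 library left out it ran from -0.43 to 0.14. For lhb minus gnrh3 the range with 1 library left out was -0.41 to 0.35. The count of calls over all genes was 0 higher and 1 lower. It was 0 lower with no filter, without a variance trend and with the replicate block, 3 higher and 4 lower with rows not summed, and 1 higher with overlapping hits only. With 1 library left out it ran from 0 to 3 higher and 0 to 1 lower. The replicate block changed no member's call (limma adjusted p = 0.582, 0.719 and 0.882 for gnrh3, lhb and fshb). Same-numbered libraries deviated from their group means with a correlation of 0.039, so the numbers were not taken to pair them. With 2 libraries per group and no counts, precision rests on the spread between libraries, which limma pools in part over genes and features.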
